A study of Mus musculus with 12 samples.

Results

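The circadian clock genes described here are Arntl (the older symbol of Bmal1), Clock, Per1, Per2, Per3, Cry1, Cry2, Dbp, Tef and Nr1d2. The members are all probe sets whose platform annotation names 1 of these 10 genes and no other gene, 12 of the 12422 probe sets on the array. Each of the 10 genes had at least 1 probe set, and Cry1 had 3. The samples were perigonadal adipose tissue of 12 mice labelled female, 6 months old and fed ad libitum, each on its own Affymetrix array. There were 3 adipose-GLUT4-Tg mice (overexpressors), in which the aP2 promoter drives Glut4, and 3 FVB littermate controls. There were also 3 adipose-Glut4-/- mice (knockouts) and 3 aP2-Cre transgenic controls, with the strain of all 6 given as a mix of C57B6, FVB and SV129. Glut4, encoded by Slc2a4, is the insulin-responsive glucose transporter. The aP2 promoter belongs to a fat-cell gene and is known to be active in some other cells too. The sources used here give neither the time of day at which the mice were killed nor whether the mice of a group were killed together.

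In mammals the proteins ARNTL and CLOCK bind E-box sequences together and switch on the Per and Cry genes, whose products return to block them, so the loop repeats about daily. The same pair drives the nuclear receptor genes Nr1d1 and Nr1d2, whose products repress Arntl, and Dbp and Tef, transcription factors that pass the rhythm on to output genes through D-box sequences. In rodent fat Arntl and Npas2 peak at about the time when Dbp is at its trough, so levels in 1 tissue sample depend on the hour of collection, and feeding times can shift them. Per1 is also induced quickly by glucocorticoids and by stimuli that raise cAMP.

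The promoters of 4 clock genes are shown because the mouse-to-mouse correlations described further on involve them. The sequences come from RefSeq on GRCm38.p6, read 5′ to 3′ on the gene's strand. For Tef (chr15:81802423-81802672, plus strand) and Nr1d2 (chr14:18239107-18239356, minus strand) they are the 250 bases before the annotated start. For Dbp (chr7:45704997-45705099, plus strand) only the 103 bases of that window outside the annotated gene are given. For Per1 (chr11:69098780-69098809, plus strand) 30 bases around the match are given, which lie inside the annotated gene, upstream of 1 of its starts. Capitals mark the E-box CACGTG.
Tef: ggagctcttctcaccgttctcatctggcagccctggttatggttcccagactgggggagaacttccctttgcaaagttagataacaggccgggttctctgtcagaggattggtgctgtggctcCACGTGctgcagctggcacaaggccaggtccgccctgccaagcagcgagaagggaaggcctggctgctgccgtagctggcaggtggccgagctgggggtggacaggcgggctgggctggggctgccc
Nr1d2: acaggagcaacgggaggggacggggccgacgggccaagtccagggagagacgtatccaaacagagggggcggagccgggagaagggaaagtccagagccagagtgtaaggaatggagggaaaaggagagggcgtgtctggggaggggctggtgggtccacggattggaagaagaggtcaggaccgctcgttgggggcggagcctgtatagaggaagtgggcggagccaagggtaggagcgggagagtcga
Dbp: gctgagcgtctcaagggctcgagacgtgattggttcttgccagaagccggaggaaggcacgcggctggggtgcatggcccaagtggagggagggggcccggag
Per1: gtcCACGTGcagggatgtgtgtgacacagc

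The windows of 250 bases were searched on both strands for the E-box CACGTG, the E-prime box CACGTT, the D-box TTANGTAA, the core TAGGTCA bound by the ROR and NR1D receptors, and the cAMP response element TGACGTCA. None of these motifs contains another. Windows were at hand for 9 of the 10 genes, 14 windows in all because some genes have several starts, and Per2 is named only. The E-box was in 1 of the 2 Per1 windows (166 bases before the start), in both Tef windows (127 and 138 bases before) and in the Cry1 window (60 bases before). Over all 32851 promoter windows of this length, 6.02% held an E-box. The E-prime box (3.85% of all windows) was in the Cry1 and Cry2 windows, and the D-box (2.06%) was found 2 times in the Per3 window. The receptor core (2.23%) and the cAMP element (1.55%) matched no member's window, and the Dbp, Nr1d2, Arntl and Clock windows held none of the 5 motifs. A match describes letters in the window and is not a measured binding site.

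The deposited values are linear intensities in arbitrary units, and with no reads counted the precision depends on how many arrays there are. The lowest intensity was 21.9 on each overexpressor-line array and 22.27 on each knockout-line array, and levels were therefore not tested between the lines. Array medians ran from 185.8 to 219.4. Differences were tested with limma on log2(intensity + 36.92), a scale that understates changes of dim probe sets, with Benjamini-Hochberg adjustment over the 7454 probe sets tested and a threshold of 0.05. The 40% of probe sets with the lowest mean over the 12 arrays were not tested. Of the 12 clock probe sets 8 were tested, 1 each for Arntl, Clock, Per1, Per2, Per3, Cry2, Tef and Nr1d2, while the Dbp probe set and the 3 Cry1 probe sets were too dim. Nothing in the labels says whether mice of a group came from separate litters or days, so p-values measure the spread between these mice. The fat-cell gene Adipoq read 5196 to 6986 on all 12 arrays, among the brightest signals. Slc2a4 read 625, 1109.7 and 1042 in overexpressors, against 639, 583 and 1212 in their controls, and 378, 365 and 363 in knockouts, against 416, 514 and 614 in theirs. Neither Slc2a4 difference passed the test (limma adjusted p = 0.930 and 1.00), and since the labels name neither the deleted exons nor the transgene's species, this probe set does not check the labels.

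No clock gene differed past the threshold between a mutant and its control. By limma, 0 of the 8 tested clock probe sets were called in the overexpressor comparison, where 0.0805% of all tested probe sets were called, and 0 of 8 in the knockout comparison, where 0.121% were. In the test of whether the effects differed between the lines it was again 0 of 8, against 0.161% of all. Per2 entered these 8 only through its brightness in the overexpressor line and was near the floor of the array in the knockout line, where it could hardly be called. At an unadjusted p under 0.05 there were 2 clock probe sets in the overexpressors (Per1 and Tef, both lower), 1 in the knockouts (Clock, higher) and 1 for the difference (Per1), beside 4.76%, 3.98% and 4.95% of all tested probe sets in those comparisons. Complete separation of the groups, with no overlap between 3 mutants and 3 controls, was seen lower in 2 of 8 for the overexpressors (6.48% of all tested probe sets) and higher in 1 of 8 (2.29%). In the knockouts it was seen higher in 1 of 8 (5.62%) and lower in 0 of 8 (1.89%). Over the 8 probe sets the median log2 change was -0.08 in overexpressors and 0.06 in knockouts, beside -0.07 and 0.04 over all tested probe sets. Most probe sets lay to the same side in each line, 5240 of 7454 lower in overexpressors and 4693 of 7454 higher in knockouts, against which the direction counts of all lists are to be read.

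**Figure D1:**
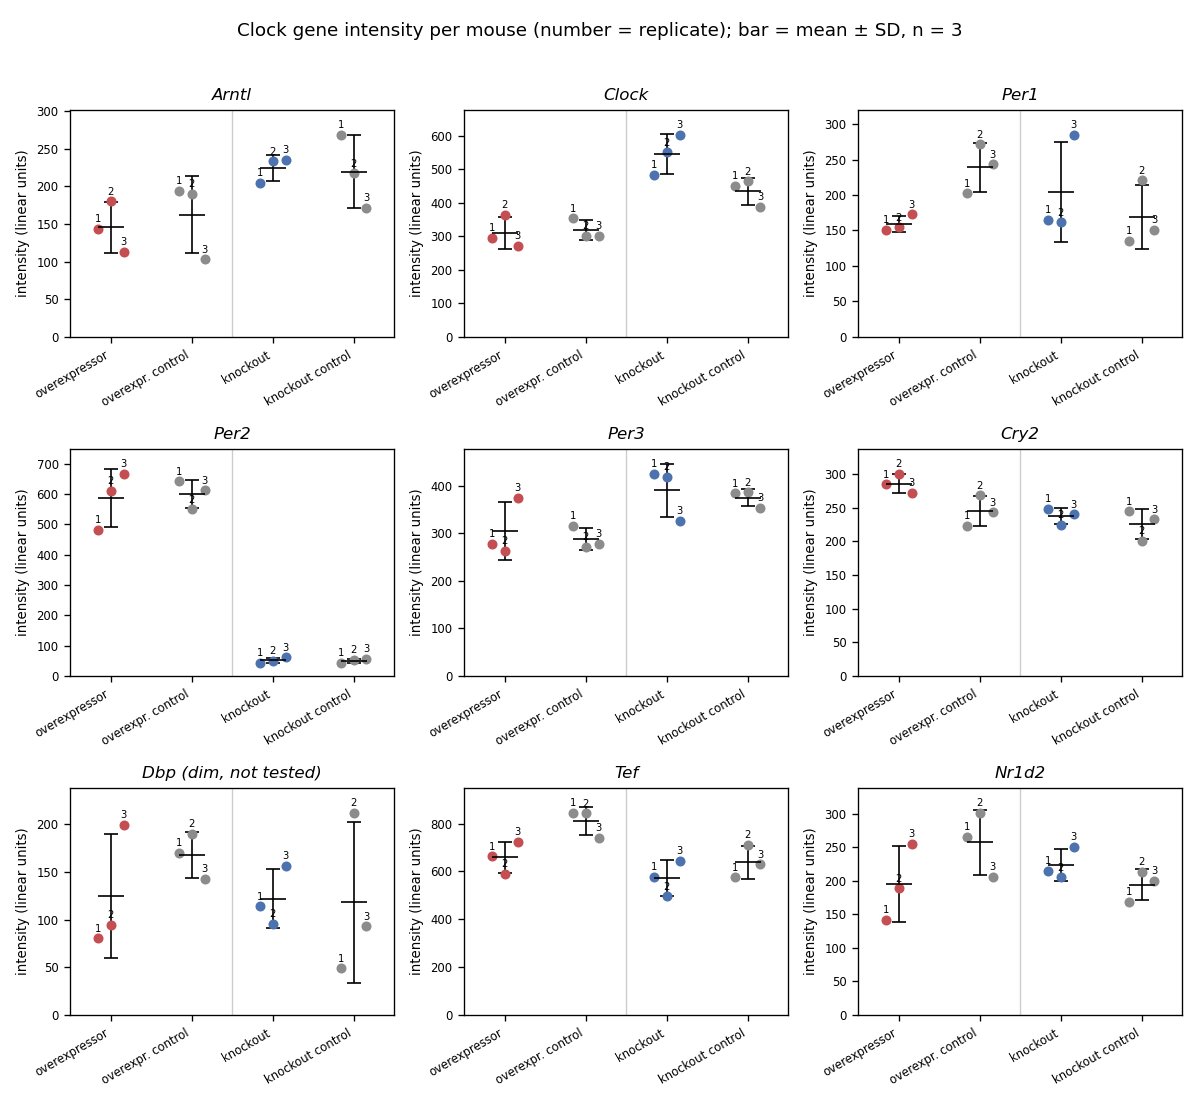
Intensity (linear units, axes from 0) of 9 clock genes in each of the 12 mice, numbered by replicate, with the mean and SD of each group of 3. Per1 and Tef lie lower in all 3 overexpressors than in their 3 controls, Cry2 higher, and Clock lies higher in all 3 knockouts than in theirs; the Dbp points of a group lie up to 4.35-fold apart.

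Among the activators, Arntl (102382_at) encodes the partner that, paired with CLOCK or NPAS2, drives the loop. It read 143, 180.3 and 113 in overexpressors, against 194, 189.9 and 103 in their controls. In knockouts it read 204, 233 and 235, against 269, 217 and 172 in theirs. Both pairs of groups overlapped, and the log2 fold changes were -0.11 (95% interval -0.55 to 0.33, limma adjusted p = 0.957) and 0.04 (-0.40 to 0.49, adjusted p = 1.00). The lowest value of the overexpressor line was in control 3 and the next lowest in overexpressor 3, so mice of both genotypes were at the low end.

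Clock (92257_at), the histone acetyltransferase partner of ARNTL, read 483, 551 and 604 in knockouts, against 452, 464 and 387 in their controls. The 3 knockouts lay above the 3 controls, and the log2 fold change of 0.31 (SE 0.13, interval 0.03 to 0.58) did not pass the test (limma adjusted p = 1.00). In overexpressors it read 296, 364 and 271, against 354, 302 and 301 in controls, with overlap and a log2 fold change of -0.04 (SE 0.13). The difference between those effects was -0.34 (interval -0.74 to 0.05, limma adjusted p = 0.893). Of the other signals that moved with the knockout, B cell markers summed to 1824 to 2546 in knockouts and 752 to 1002 in controls (2 of 3 listed markers on the array). Adipocyte markers (6 of 7 on the array, 6 of 6 higher, none called) summed to 22064 to 23977 in knockouts and 19507 to 21006 in controls, also without overlap. Their part in the Clock values was not tested.

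The Per genes encode the repressors that rise as the activators work. Per1 (93619_at) read 151, 155 and 173 in overexpressors, against 202, 272 and 243 in their controls. All 3 overexpressors lay below all 3 controls, with means of 159.5 ± 11.4 and 239 ± 34.9 (SD, n = 3 each). The log2 fold change was -0.48 (SE 0.19, interval -0.91 to -0.06), which did not pass over all probe sets (limma adjusted p = 0.913), and it stayed between -0.58 and -0.40 with any 1 array left out. In knockouts Per1 read 165, 162 and 285, against 135, 221 and 151 in controls. Those groups overlapped, with knockout 3 far above the other two knockouts, and the log2 fold change of 0.21 (SE 0.19) was -0.02 without knockout 3. The effects differed by -0.69 (interval -1.29 to -0.10, limma adjusted p = 0.893).

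Per2 (93694_at) read 481, 610.3 and 668 in overexpressors, against 642, 550.5 and 612 in their controls, and the groups overlapped. In the knockout line it was near the floor of the array, at 42.8, 50.3 and 60.8 in knockouts, against 42.9, 52.2 and 56.0 in controls. The log2 fold change in overexpressors was -0.04 (SE 0.13) and changed sign when array medians were subtracted (0.01). In the knockout line all 6 values lay below the mean at which probe sets were left out as dim, and no change is read from them. Background strain and separate processing of the lines cannot be told apart for the gap in the Per2 level between them. Per3 (102242_at), the family member least needed for the rhythm in mice, read 278, 263 and 375 in overexpressors, against 315, 272 and 278 in controls (log2 fold change 0.06, SE 0.14). It read 426, 418 and 327 in knockouts, against 384, 386 and 354 in controls (0.05, SE 0.14). Per3 overlapped in both lines.

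The Cry genes encode the stronger repressors of ARNTL and CLOCK. Cry2 (97724_at) read 285, 301 and 272 in overexpressors, against 224, 269 and 243 in their controls. The 3 overexpressors lay above the 3 controls by a small margin, with a log2 fold change of 0.20 (SE 0.10, interval -0.02 to 0.41, limma adjusted p = 0.913). In knockouts Cry2 read 248, 224 and 240.4, against 245, 201 and 233 in controls, with overlap (0.06, SE 0.10). The Cry1 probe sets were dim. The brightest (94420_f_at) read 47.9 to 83.0 in overexpressors and 53.8 to 91.0 in their controls, and 57.5 to 60.2 in knockouts and 45.8 to 86.8 in theirs. Another (94421_r_at) read 21.9 to 25.2 in overexpressors and 21.9 in their controls, and 57.8 to 62.2 in knockouts and 61.2 to 75.0 in theirs, and the last (161225_r_at) was at the floor on all 12 arrays.

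Of the outputs and the stabilising loop, Tef (160117_at), a PAR bZIP transcription factor, was the brightest member. It read 663, 589 and 723 in overexpressors, against 847, 843 and 742 in their controls. The 3 overexpressors lay below the 3 controls, at 658 ± 66.7 against 810.5 ± 59.6 (SD, n = 3 each), with a log2 fold change of -0.29 (SE 0.13, interval -0.57 to -0.01, limma adjusted p = 0.913). In knockouts Tef read 576, 495 and 643, against 575, 712 and 630.3 in controls, with overlap and a log2 fold change of -0.15 (SE 0.13), which was -0.06 without knockout 2.

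Nr1d2 (99076_at), which encodes the repressor REV-ERB beta, read 141, 189 and 255 in overexpressors, against 265, 302 and 205 in their controls. It read 215, 205 and 251 in knockouts, against 169, 213 and 200.1 in theirs. Groups overlapped in both lines, and the log2 fold changes were -0.36 (SE 0.17, limma adjusted p = 0.913) and 0.17 (SE 0.17, adjusted p = 1.00). The overexpressor change was -0.18 without overexpressor 1 and -0.54 without overexpressor 3, and the knockout change was 0.09 without knockout control 1.

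Dbp (160841_at), the output gene with the widest daily swing in many tissues, had the widest spread of the members. It read 80.2, 94.5 and 199 in overexpressors, against 169.9, 190.2 and 143 in their controls, and the groups overlapped. In knockouts it read 114, 95.8 and 156, against 48.9, 212 and 92.9 in their controls, so that 2 mice with the same label, controls 2 and 1, lay 4.35-fold apart. The within-group SD of Dbp was 0.50 on the log2 scale, larger than that of 99.2% of 1861 probe sets within 25% of its mean intensity, whose median SD was 0.16. When the filter on dim probe sets was left off, its log2 fold changes were -0.41 in overexpressors (interval -1.25 to 0.44, limma adjusted p = 0.957) and 0.16 in knockouts (-0.68 to 1.00, adjusted p = 1.00). Among the tested members the within-group SD ran from 0.10 (Cry2) to 0.29 (Arntl) and had a median of 0.16, beside 0.18 over all tested probe sets.

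**Figure D2:**
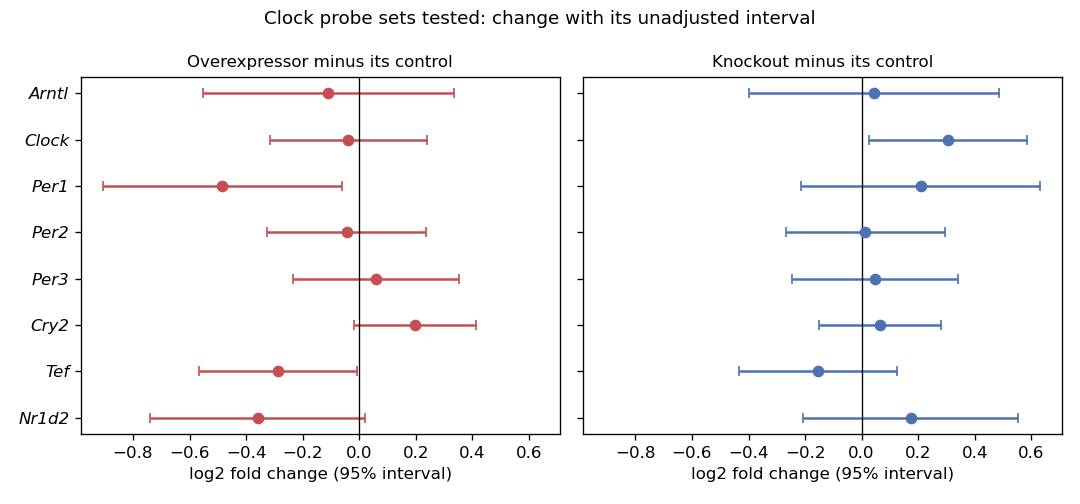
Log2 fold change (x axis) with its 95% limma interval, unadjusted, for the 8 tested clock probe sets in overexpressors (left) and knockouts (right), each against its own control. The intervals of Per1 and Tef in overexpressors and of Clock in knockouts leave out 0, and none of the 8 passes the adjusted test in either panel; the knockout value of Per2 rests on signals near the floor.

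To see whether mice of 1 group differed in clock state, each value was taken as a log2 deviation from its group mean, which removes genotype and line. Overexpressor 3 had the highest Dbp, Nr1d2, Tef, Per1, Per2 and Per3 of its group and the lowest Arntl, Clock and Cry2. Its deviations were 0.62 for Dbp, 0.36 for Nr1d2, 0.28 for Per3, -0.27 for Arntl and -0.16 for Clock. Knockout control 1 had the lowest Dbp (-0.71), Nr1d2 (-0.16), Tef (-0.14) and Per1 (-0.24) and the highest Arntl (0.27) of its group. These mice of different genotype stood at opposite ends of the pattern. Overexpressor control 3 went against it. Its Dbp (-0.18), Nr1d2 (-0.27) and Tef (-0.12) were the lowest of its group, but so was its Arntl (-0.47). Knockout 3 and knockout control 2 had the highest Dbp, Nr1d2, Tef and Per1 of their groups, but their Arntl was not low (0.06 and 0.01), and knockout 3 had the lowest Per3 (-0.22).

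**Figure D3:**
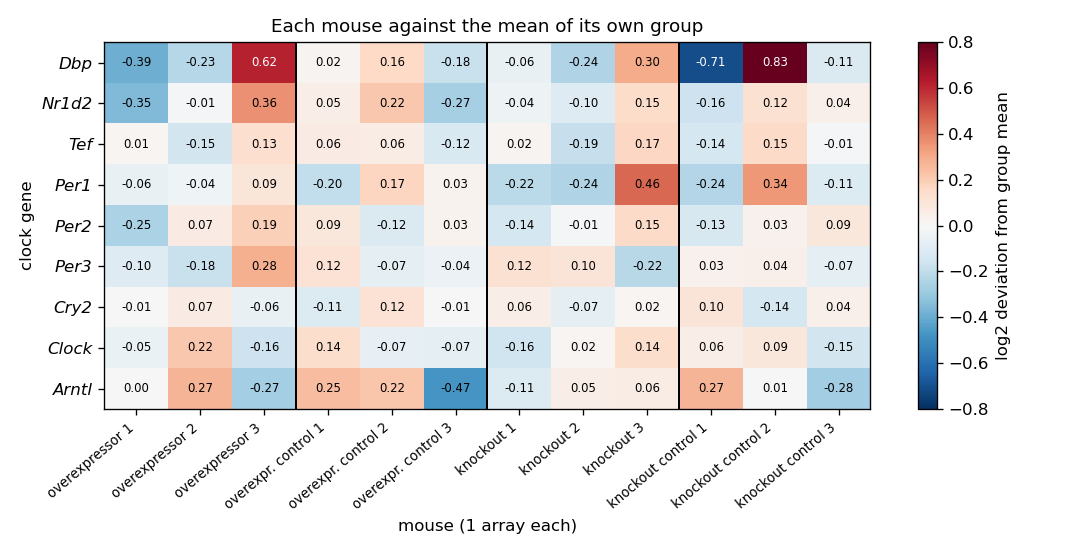
Log2 deviation of each mouse (columns, 1 array each) from the mean of its own group for 9 clock genes (rows), in colour with the value printed in each cell. Dbp, Nr1d2, Tef and Per1 turn the same colour in overexpressor 3, knockout 3 and knockout control 2, while Arntl and Clock are low in overexpressor 3. The Per2 cells of the knockout line rest on signals near the floor.

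Of the 45 pairs among the 10 genes, 1 passed the test, Dbp with Nr1d2, and this call did not hold under the other normalizations. In all 4 groups the mouse with the highest Dbp was also the one with the highest Nr1d2 and Per1, and in 3 of 4 the one with the highest Tef. For Dbp and Nr1d2 the deviations had a Pearson r of 0.77 and a Spearman rho of 0.87 (n = 12). Each gave an exact two-sided permutation p of 7.72e-04, the smallest that the 1296 arrangements of mice within groups allow, and 0.0347 after Benjamini-Hochberg adjustment over the 45 pairs of 10 genes. The r was 0.74 without the 2 mice farthest from the median of Dbp, and 0.91 and 0.87 within the 6 arrays of the overexpressor and the knockout line. For Dbp and Tef r was 0.80 and rho 0.87 (exact permutation p = 0.00926 and 0.00386, adjusted 0.139 and 0.0868), with r = 0.73 without the 2 mice farthest in Dbp. For Per1 and Dbp r was 0.72 and rho 0.71 (exact permutation p = 0.00694 and 0.0154, adjusted 0.139 and 0.162), with r = 0.58 without the 2 mice farthest in Per1. The family with the dim genes was added after the data were seen. With array medians subtracted the r of Dbp and Nr1d2 was 0.76 and its adjusted permutation p 0.278, and with quantile normalization 0.75 and 0.451, so that call ended. Under those settings r was 0.72 and 0.54 for Dbp with Tef (adjusted permutation p = 0.583 and 0.619) and 0.69 and 0.70 for Per1 with Dbp (0.434 and 0.451). With any 1 array left out the adjusted permutation p of Dbp and Nr1d2 was 0.052 to 0.21. Only 432 arrangements then remain, and a p as small as that over 12 mice cannot be reached. Leaving out arrays therefore cannot show whether the call holds.

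**Figure D4:**
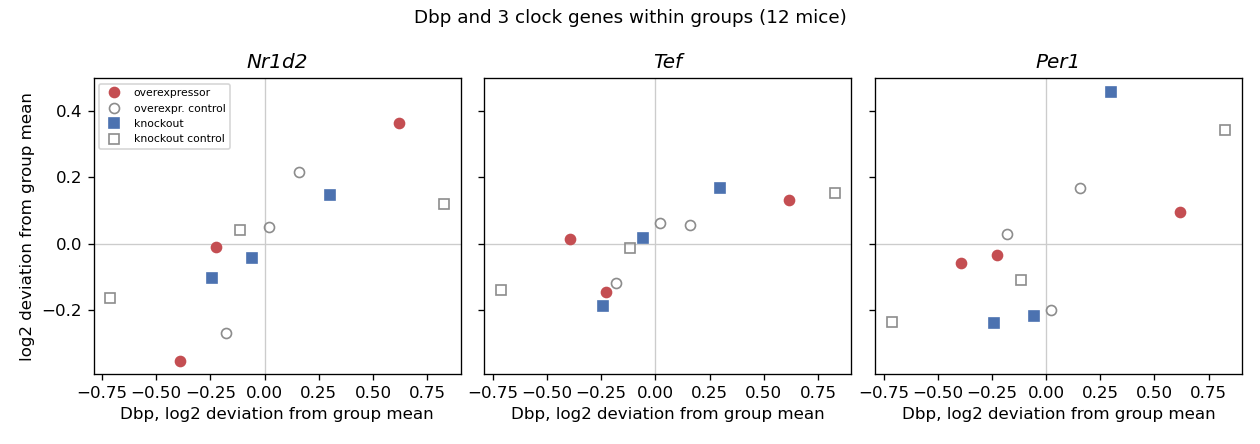
Log2 deviation from the group mean of Dbp (x axis) against that of Nr1d2, Tef and Per1 (y axes), 1 point per mouse, with overexpressors and knockouts filled and their controls open. Points run from lower left to upper right in the 3 panels, with r of 0.77, 0.80 and 0.72.

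In the planned family, the 28 pairs of the 8 tested genes, 0 pairs passed (smallest adjusted exact permutation p = 0.396) and 3 had an unadjusted p under 0.05. Pairs with Per2 include its knockout-line values, which were near the floor. Arntl and Clock, the dimer partners, had r = 0.69 and rho = 0.76 (exact permutation p = 0.0285 and 0.0139, adjusted 0.396 and 0.259), and r was 0.70 without the 2 mice farthest in Arntl. Tef and Nr1d2 had r = 0.64 and rho = 0.71 (exact permutation p = 0.0424 and 0.0216), and r was 0.72 without the 2 farthest in Tef. Per1 and Nr1d2 had r = 0.49 and rho = 0.60 (exact permutation p = 0.0424 and 0.0278), and r was 0.43 without the 2 farthest in Per1. The opposition of Arntl and Dbp known from time courses was weak over these mice, at r = -0.22 and rho = -0.20 (exact permutation p = 0.559 and 0.605, adjusted 0.929 and 0.923), with r = -0.51 without the 2 mice farthest in Arntl.

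Markers of other tissues were read beside this pattern. Acta1, the skeletal muscle actin, read 460, 1027 and 2169 in overexpressors, against 711, 1576 and 1732 in their controls, and 1064, 812 and 3781 in knockouts, against 1111, 2082 and 845 in theirs. Its highest mouse was also the highest in Dbp in the overexpressors, the knockouts and the knockout controls, but not in the overexpressor controls. Ckm, the muscle creatine kinase, stayed at 231 to 259 in overexpressors and 209.9 to 272 in their controls, and at 69.7 to 119.6 in knockouts and 77.1 to 104 in theirs. All knockout-line Ckm values lay below the mean at which probe sets were left out as dim (156.7). No order of the mice is read from them. The part of muscle RNA in these values was not tested. In bulk tissue, fewer cells of a type and less RNA per cell cannot be told apart.

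Among all 6668 single-gene probe sets tested, the within-group deviations most like those of Dbp, by Pearson r over 12 mice, were those of Npepps (0.93), Prkd2 (0.92), H2-K1 (0.90), Ppif (0.89) and Prss2 (0.87). The most opposed were Sema3f (-0.94), Prkce (-0.92), Cldn3 (-0.90), Cx3cr1 (-0.90) and Traip (-0.89). Of the clock genes, Tef stood at rank 28 from the top, Nr1d2 at 53 and Per1 at 92, while the others were spread over the ranking. Per2 was at 628, Per3 at 2743, Clock at 4542, Arntl at 5346 and Cry2 at 6363, and of the other regulators Nr1d1 was at 1990, Npas2 at 4225 and Rora at 6301. The rank of Per2 rests in part on knockout-line values near the floor. With 12 mice and this many probe sets, such r values are a description.

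Other clock regulators were read from a list of 22 genes, of which 13 were on the array and 12 were tested. In overexpressors 5 were higher and 7 lower (median log2 change -0.01), in knockouts 6 and 6 (-0.01), and 0 were called by limma in either, with 0 at an unadjusted p under 0.05. Nr1d1, the sister gene of Nr1d2 that encodes REV-ERB alpha, read 445, 498 and 447 in overexpressors, against 324, 519 and 405 in controls (log2 fold change 0.16). It read 503, 469.9 and 734 in knockouts, against 393, 461 and 468 in controls, with no overlap (0.32, limma adjusted p = 1.00). Npas2, which can stand in for CLOCK, was at -0.28 and -0.20, and its lowest overexpressor was mouse 3, as for Arntl. Rora, the activator that competes with the NR1D receptors, was at -0.21 and -0.31, Bhlhe40 at 0.23 and 0.25, and Nfil3, which represses through D-boxes, at -0.01 and -0.02. The kinase genes Csnk1d (0.01 and -0.02), Csnk1e (-0.06 and -0.04) and Csnk2a1 (0.03 and 0.02) and Timeless (0.00 and 0.00) lay near 0. Nono was at -0.22 and 0.11, Fbxw11 at -0.23 and 0.25 and Sirt1 at 0.03 and -0.21, each given for overexpressors and then knockouts, while Btrc was too dim to test.

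Further lists hold genes known to vary with the hour of sampling, feeding or handling. Between a mutant and its control, such a difference and the genotype itself cannot be told apart. Of 13 tested rhythmic outputs, 7 were higher and 6 lower in overexpressors (median log2 change 0.00), and 9 and 4 in knockouts (0.13), none called by limma. At an unadjusted p under 0.05 there were 4 of 13 in overexpressors and 1 of 13 in knockouts, beside the 4.76% and 3.98% of all tested probe sets. Alas1, the first enzyme of heme synthesis, read 589, 918 and 779 in overexpressors, against 965, 1083 and 1300.2 in controls (-0.54, limma adjusted p = 0.861). It read 1160.1, 1275 and 1395 in knockouts, against 1033, 1028 and 709 in controls (0.47, adjusted p = 1.00), so its groups did not overlap in either line. Tspan4 was at 0.45 and -0.10 and Tfrc at -0.25 and -0.08.

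Fed-state genes were higher in 8 of 9 in overexpressors (median 0.35) and in 9 of 9 in knockouts (0.26), with 1 at an unadjusted p under 0.05 in overexpressors, 0 in knockouts and 0 called by limma. Elovl6, a fatty acid elongase, was at 1.89 and 0.38, Lpl at -0.02 and 0.26 and Me1 at 0.42 and 0.75. Mice of 1 group differed in these genes. Overexpressor control 2 was low in Elovl6 (296, against 789 and 1508) and Me1 (726, against 2094 and 2932). Knockout control 2 was high in both (341, against 126 and 196, and 1557, against 646 and 618). Scd1 did not follow, at 7458, against 7452 and 7782, and 7356, against 7427 and 6421. Both mice had the highest Dbp of their group, and the part of feeding was not tested. Of 8 fasting genes, 4 were higher and 4 lower in overexpressors (median -0.08), and 6 and 2 in knockouts (0.04). Pck1, an enzyme gene of the fasting list, fell in overexpressors (1256 ± 221 against 3293 ± 730, log2 fold change -1.36, limma adjusted p = 0.00790) and was at -0.08 in knockouts. Cebpd was at -0.95 and 0.07 and Irs2 at -0.19 and 0.27.

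Glucocorticoid-responsive genes were read beside the low Per1 of the overexpressors. Of 11 tested, 8 were lower there and 3 higher (median -0.32), beside 5240 of 7454 probe sets lower and a median of -0.07 over all. At an unadjusted p under 0.05 there were 3 (all lower, as were 263 of 7454 probe sets), and 0 were called by limma. Among those higher was Fkbp5 (0.17), whose groups overlapped. Dusp1 read 738 ± 60.6 against 979 ± 84.8 (log2 fold change -0.39) and Sgk1 382 ± 18.5 against 653 ± 177 (-0.69), each with all 3 overexpressors below all 3 controls. In knockouts 7 were higher and 4 lower (median 0.04), with Dusp1 at 0.18 and Sgk1 at 0.24. Knockout 3, the mouse with the high Per1, was also far above the other two knockouts in Sgk1 (916, against 407 and 398), Dusp1 (1348, against 883 and 876) and Cebpd (726, against 274 and 338). Over the 12 genes of that list on the array, however, it was the highest knockout in 7 and the lowest in 4, among them Mt2 (1359, against 1484 and 1432) and Cdkn1a (449, against 457 and 513). Also among those 4 were Tsc22d3, which was too dim to be tested, and Lcn2, a weak signal (123, against 179 and 150). The part of a glucocorticoid response in the Per1 values was not tested. Handling-response genes were lower in 12 of 14 in overexpressors (median -0.16) and in 9 of 14 in knockouts (-0.02), with Zfp36 at -0.20 and 0.07 and Atf3 at 0.18 and -0.25. Overexpressor control 1 and knockout control 1 stood apart in the immediate early genes Fos and Egr1. Fos read 577 in overexpressor control 1, against 139 and 74.2 in the other two, and 381 in knockout control 1, against 97.6 and 113. Egr1 read 866 against 294 and 241, and 601 against 246 and 266. In knockout control 1 Fosb (597, against 641 and 477) and Nr4a1 (179.5, against 178.6 and 206) did not stand apart. Over the 15 handling-response genes on the array, overexpressor control 1 was the highest of its group in 13 and the lowest in 1. The counts for knockout control 1 were 10 and 0. Knockout control 1 is the mouse with the lowest Dbp of its group, and the part of handling in that value was not tested. Temperature-responsive genes were lower in 5 of 7 and 6 of 7 (medians -0.09 and -0.06), with Hspa1a at -0.52 and -0.30, Hspa1b at -0.35 and -0.36 and Hsph1 at -0.18 and -0.19.

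Sums of other cell types' markers overlapped between overexpressors and controls, and 0 of the listed markers were called there by limma. Macrophage markers (5 of 5 with a log2 change below 0) summed to 2758 to 3024 in overexpressors and 2481 to 5466 in controls, fibroblast markers (5 of 5) to 13380 to 16788 and 15945 to 22781, and smooth muscle markers (3 of 3) to 5427 to 5988 and 5543 to 9430. The median log2 changes were -0.34 for macrophage, -0.58 for fibroblast (4 of 5 at an unadjusted p under 0.05) and -0.53 for smooth muscle markers (2 of 3). Endothelial (4 of 4 lower) and mesothelial (3 of 3) markers had medians of -0.18 and -0.37, and adipocyte markers (5 of 6 lower) of -0.06. Overexpressor control 1 stood apart from the other controls in the macrophage sum (5466, against 3675 and 2481). The same mouse stood apart in the mesothelial sum (4364, against 2509 and 1988). In knockouts the medians were 0.25 for adipocyte, 0.09 for macrophage, 0.01 for endothelial, -0.13 for fibroblast, -0.32 for smooth muscle and -0.13 for mesothelial markers. B cell, T cell, epithelial and red cell markers had 1 tested gene each, at -0.19, 0.01, -0.24 and 0.08 in overexpressors and 1.40, -0.08, -0.18 and -0.24 in knockouts, with the B cell gene Ighm, an immunoglobulin heavy chain, called in knockouts (limma adjusted p = 0.0160). Skeletal muscle and liver markers had 2 each, with medians of -0.11 and -0.26 in overexpressors and of 0.10 and 0.03 in knockouts. The overexpressor liver median includes Ttr, which read 32.3 to 73.3 in that line. The knockout muscle median includes Ckm, at 69.7 to 119.6 in that line. Both ranges lie below the mean at which probe sets were left out as dim (156.7). The epithelial gene, Krt8, was around that mean in the knockout line (115.9 to 163.7). No listed marker gene on the array was at the floor on all arrays. Their part in the Per1 and Tef values was not tested.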

How the data were processed

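Per the labels' protocols, total RNA was extracted with an RNeasy kit, labelled with biotin and hybridised to Affymetrix arrays at a core facility. The values are the deposited intensities of the series matrix; their software, scaling and background treatment are not stated in the sources used here. All 12 columns were used. Groups and replicate numbers were read off the titles, because controls carry their mutants' entry in the genotype field.

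Intensities were used without further normalization, since array medians spanned 0.20 on the log2 scale, under the limit of 0.5. They were transformed as log2(intensity + 36.92), the table's 10th percentile. The 4968 probe sets with the lowest means (40%, all under 156.7) were left out. The means of the 4 groups were estimated in 1 model by limma (version 3.58.1, R 4.3.3) with a moderated variance trend, 8 residual and 4.27 prior degrees of freedom. Each mutant was set against its own control. An exact permutation test of 3 against 3 cannot go below 0.1, so none was used for single genes. The closest arrays of a group differed by 0.187 (root mean square, log2), so each array counts as 1 replicate. The scripts were tested on simulated data.

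Correlations used deviations from group means and exact permutation within groups. In the platform annotation 10833 probe sets carry 1 symbol, 396 carry several and 1193 carry none; gene IDs linked 10817 of the single-symbol ones to RefSeq (GRCm38.p6). The brightest probe set stands for a listed gene. Named genes were the members, the clock regulators, 3 genes per further list with the smallest p plus any called, the 5 most and 5 least like Dbp, and Slc2a4. Named beside these, after their values were seen, were Acta1, Ckm, Adipoq, Fos, Fosb, Egr1, Nr4a1, Junb, Fkbp5, Scd1, Mt2, Cdkn1a, Tsc22d3, Lcn2, Ttr and Krt8. Members and lists were chosen with earlier results of these data known. Same-numbered arrays of a line had deviations that correlated at -0.35 to 0.02, and differently numbered ones at -0.20 to 0.41. The numbers were not taken as pairs in the main fit, but with 3 arrays a group these values cannot exclude a pairing. Alternatives were the constant, the filter, 2 normalizations, each line alone, the replicate number as a block and each array left out. Plots used matplotlib 3.10.9 (Python 3.11.15).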

Additional observations from a re-analysis of the deposited data

Results flagged for a closer look

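Nr1d2 was singled out because its signal lay on opposite sides of the controls in the 2 lines. All 3 overexpressors (141, 189 and 255) were below the mean of their controls (257), and all 3 knockouts (215, 205 and 251) were above the mean of theirs (194). The difference between the effects was -0.53 on the log2 scale (SE 0.25, 95% interval -1.07 to 0.00) and did not pass limma's test (adjusted p = 0.893). Over all tested probe sets 5404 of 7454 had a difference below 0 (median -0.12). The difference of Per1 was larger than that of Nr1d2, at -0.69.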

How the results depend on the processing

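The count of called clock probe sets was 0 in each limma fit run, for both comparisons and the difference. Counts over all probe sets moved. In overexpressors 6 were called, 11 with quantile normalization, 11 with array medians subtracted, 1 on the line's own 6 arrays and 3 to 21 with 1 array left out. In knockouts 9 were called, 0 with the replicate block and 6 to 11 with 1 array left out. For the difference 12 were called, 1 without a filter, 1 with the replicate block and 1 to 13 with 1 array left out. The replicate block changed no clock call. Small changes turned sign. In overexpressors quantile normalization gave 0.028 for Clock and 0.051 for Per2, and median subtraction 0.019 and 0.014. In knockouts it gave -0.011 for Per3 (quantile) and -0.024 for Per2 (median). With 1 array left out, the overexpressor changes ran from -0.35 to 0.026 for Arntl, -0.15 to 0.043 for Clock, -0.14 to 0.084 for Per2 and -0.081 to 0.15 for Per3. The knockout changes ran from -0.096 to 0.18 for Arntl, -0.020 to 0.38 for Per1, -0.063 to 0.084 for Per2, -0.015 to 0.16 for Per3 and -0.0065 to 0.11 for Cry2. Changes of Tef and Nr1d2 in both lines, of Per1 and Cry2 in overexpressors and of Clock in knockouts kept their direction in each alternative that tested them; leaving out the lowest 60% left Per1, Cry2 and Nr1d2 untested. Of clock gene pairs, 0 passed among 28 and 1 of 45 with the dim genes, added later. The r of Dbp and Nr1d2 ran from 0.65 to 0.90 with 1 array left out, and its adjusted permutation p was then 0.052 to 0.21. With 432 arrangements in place of 1296, a p as small as that over 12 mice could not be reached. The causes were not tested. Dim signals limit Dbp and Cry1, and Per2 in the knockout line.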

Other observations

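The level of Per2 differed widely between the lines, at 481 to 668 over the 6 arrays of the overexpressor line and 42.8 to 60.8 over the 6 of the knockout line, those of the knockout line near the floor. Clock read 271 to 364 in the overexpressor line and 387 to 604 in the knockout line. A Cry1 probe set (94421_r_at) read 21.9 to 25.2 and 57.8 to 75.0. Wide gaps were not particular to clock genes: Junb read 151 to 260 in the overexpressor line and 1627 to 2205 in the knockout line. The lines differ in strain and appear to have been processed separately, so these levels were not tested.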
